A study of Drosophila melanogaster with 3 samples.

Results

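The peaks described here lie in the sequence between genes but close to one. They are the 1097 of the 9459 reproducible peaks of the series whose summit falls outside every annotated gene and more than 500 bp but at most 5000 bp from the nearest transcription start site (TSS). Reproducible peaks are those that passed the authors' threshold on the irreproducible discovery rate (IDR), which asks how far peak ranks hold across replicates. The members were chosen by position alone, with no measured value. They made up 11.6% of the IDR summits (exact 95% interval 11.0 to 12.3) and lay in 1063 separate intervals, since a wide peak can carry several summits. For comparison, 3246 IDR summits lay within 500 bp of a TSS (promoter summits), 4557 inside genes and away from TSSs (gene body summits), and 559 between genes and more than 5000 bp from a TSS (distal intergenic summits).

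Chromatin immunoprecipitation and sequencing was used to map CG2678, a zinc finger protein of Drosophila melanogaster, through a GFP tag. There was 1 group, with 3 biological replicates of whole embryos of mixed sex aged 0 to 24 h, so no treated, mutant or untagged group was compared. The flies were a transgenic line that stably carries CG2678 fused at its C terminus to eGFP, the antibody was against GFP, and chromatin was sonicated to 200 to 800 bp. Whole embryos mix all cell types and ages of the collection, so a peak in a few cells and a weak peak in all cells cannot be told apart, and the promoter that drives the transgene is not given in the sources used here. The peak lists carry no read counts, so depth is unknown, and errors below are the spread over the 3 replicates. The control library was not analysed here. The members' rank order and sequence are described, and no value says how much protein was bound.

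CG2678 is also called Kipferl and is known from fly ovaries, where it brings the heterochromatin protein Rhino to the loci that make Piwi-interacting RNAs, the small RNAs that silence transposons. In that setting it has been linked to G-rich DNA. The stretches upstream of and between genes are where fly enhancers, insulators and distal promoter elements often lie, and many loci of developmental genes are spread over such sequence. A peak is assigned below to the gene with the nearest TSS, which does not say that it acts on that gene.

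The sequences at the summits show the feature most of the members share, which is an abundance of A and T. Each of the following runs holds a summit base with 50 bp to each side, read on the plus strand of the dm6 assembly from RefSeq, and capitals mark every unbroken run of at least 5 A or T bases. The first 8 are from the strongest members that were matched in all 3 replicates, on the arms that can be shown, in order of signal, from chrX:2124060-2124160, chr3R:16222445-16222545, chr2L:1643380-1643480, chr3R:16224462-16224562, chr3R:12403073-12403173, chr2L:1649375-1649475, chr2L:12006749-12006849 and chr3R:14053548-14053648. They are named after the gene of the nearest TSS.
ph-d: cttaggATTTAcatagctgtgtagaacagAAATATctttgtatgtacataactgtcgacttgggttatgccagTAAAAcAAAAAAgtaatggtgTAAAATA
lncRNA:CR45643, upstream summit: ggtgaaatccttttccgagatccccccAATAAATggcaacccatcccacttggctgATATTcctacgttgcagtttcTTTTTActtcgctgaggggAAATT
lncRNA:CR45695: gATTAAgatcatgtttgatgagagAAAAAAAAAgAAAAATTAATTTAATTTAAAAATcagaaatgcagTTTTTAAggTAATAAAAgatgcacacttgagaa
lncRNA:CR45643, downstream summit: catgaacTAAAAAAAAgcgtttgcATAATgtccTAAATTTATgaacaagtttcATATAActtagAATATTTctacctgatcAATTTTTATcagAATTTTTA
DNAlig3: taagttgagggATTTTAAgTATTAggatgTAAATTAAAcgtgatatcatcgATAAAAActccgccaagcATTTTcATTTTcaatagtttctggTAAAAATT
chinmo: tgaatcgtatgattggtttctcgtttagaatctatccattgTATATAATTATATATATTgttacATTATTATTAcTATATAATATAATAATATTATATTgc
Rh5: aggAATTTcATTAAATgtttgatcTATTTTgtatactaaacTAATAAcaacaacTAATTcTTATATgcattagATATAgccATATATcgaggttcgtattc
foxo: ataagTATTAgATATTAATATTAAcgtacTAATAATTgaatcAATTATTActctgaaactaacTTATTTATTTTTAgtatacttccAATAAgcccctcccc

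The extremes of base composition, taken among members matched in all replicates and free of soft-masked repeats within the window, show the range within that subset. Over all members, G and C content at the summit ran from 10.9% to 69.3%. The first pair below held the most G and C of such members on the arms shown (chr2L:12012304-12012404 and chr2L:3611939-3612039), and the other three held the least (chr3L:18204071-18204171, chr2L:3855699-3855799 and chr3R:15984564-15984664), with capitals as before.
lncRNA:CR44588: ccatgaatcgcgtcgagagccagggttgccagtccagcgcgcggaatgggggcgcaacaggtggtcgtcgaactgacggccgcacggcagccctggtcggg
lncRNA:CR44310: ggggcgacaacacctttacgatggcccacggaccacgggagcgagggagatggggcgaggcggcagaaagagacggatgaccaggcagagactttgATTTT
CG7320: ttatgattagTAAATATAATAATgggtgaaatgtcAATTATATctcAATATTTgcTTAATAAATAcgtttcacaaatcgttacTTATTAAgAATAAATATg
lncRNA:CR45449: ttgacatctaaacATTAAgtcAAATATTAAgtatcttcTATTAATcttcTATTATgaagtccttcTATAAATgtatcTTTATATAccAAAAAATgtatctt
srp: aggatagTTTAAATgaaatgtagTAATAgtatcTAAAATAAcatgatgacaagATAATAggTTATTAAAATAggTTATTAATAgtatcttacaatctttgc

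The chinmo run carried an unbroken stretch of 24 A or T bases and the lncRNA:CR45695 run one of 23, while the lncRNA:CR44588 run had none longer than 3. The G and C content of these windows was 18.8% at chinmo, 22.8% at lncRNA:CR45695, 24.8% at foxo and 31.7% at ph-d, against 69.3% at lncRNA:CR44588 and 60.4% at lncRNA:CR44310. The upstream summit of lncRNA:CR45643 had the highest content of the first 8 runs, 45.5%, the same as in its flank. DNAlig3 also had equal content in both windows, at 28.7%.

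Members were of middling strength among the IDR peaks. Signal values are the authors' own scores from the pooled list, and those of the members ran from 237.1 to 7533 with a median of 491.9, close to the 494.5 of gene body summits, below the 613.9 of promoter summits and above the 423.8 of distal intergenic summits. Members were rare among the very strong peaks. They held 4 of the 100 strongest IDR peaks (those of ph-d, lncRNA:CR45643, CycB and lncRNA:CR45695) and 64 of the first 946 (6.77%), against 10.5% to 14.7% of each later set of that size.

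The same order held within each replicate, where strength was read as a rank percentile (100 is the strongest) among the replicate's own 9459 strongest peaks. The median member stood at 46.3 ± 1.78, against 56.7 ± 3.20 for promoter summits, 47.8 ± 0.742 for gene body summits and 41.2 ± 1.47 for distal intergenic summits (mean ± SD, n = 3). Members were lower than promoter summits in all 3 replicates, by 10.4 points on average (coded as -10.4 ± 4.91), and higher than distal ones in all 3, by 5.07 ± 0.354. The difference from gene body summits was -1.49 ± 1.25. An exact two-sided sign-flip permutation test over 3 replicates cannot give a p below 0.25, which each of these comparisons reached (adjusted p = 0.286 over 16 comparisons between replicates).

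Most members were found again in the single replicates. A summit among a replicate's 9459 strongest peaks lay within 100 bp of 867 members in replicate 1 (79.0%), 952 in replicate 2 (86.8%) and 908 in replicate 3 (82.8%). All 3 replicates matched 709 members, or 64.6% (exact 95% interval 61.7 to 67.5), against 62% of all IDR summits, and 20 members were matched in none. The IDR list was built from these same replicates, so this share is a description. It moved with strength. Of the 275 strongest members, with signals from 853.8 to 7533, 94.2% were matched in all 3, against 10.6% of the 274 weakest, with signals from 237.1 to 333.5.

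Within the full lists of 30000 peaks, 975 members had a summit within 100 bp in all 3 replicates. Ranks there correlated across members with Spearman's rho of 0.816 for replicates 1 and 2 (1012 members), 0.824 for 1 and 3 (1014) and 0.842 for 2 and 3 (1005). These are values across peaks, and the pooled list from which members come holds the same reads. The single member with no summit in any full list, 581 bp upstream of CG46429, had a signal of 1753 and was noticed after its values were seen.

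Around the limits of the rule, the members nearest to a TSS were those of dnt (501 bp upstream, signal 274.4) and lncRNA:CR45297 (503 bp downstream, signal 240.0). Just outside stood summits 498 bp from lncRNA:CR43334 (signal 361.6) and 496 bp from CG10232 (signal 442.7). At the far limit, the members of lncRNA:CR45537 (5000 bp, signal 455.3) and CG13481 (4988 bp, signal 396.3) were inside. Summits 5006 bp from the annotated locus FBtr0304503_df_nrg (signal 1146) and 5029 bp from lncRNA:CR46197 (signal 261.2) were outside.

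The strongest member lay 824 bp upstream of ph-d, which encodes a Polycomb group protein, in the 2923-bp gap between it and its neighbouring paralog ph-p. It spanned chrX:2123781-2124510, had a signal of 7533, and stood at ranks 48, 65 and 91 in replicates 1, 2 and 3. The ph-d gene also had a promoter summit of its own. On 3R, the lncRNA:CR45643 locus held 3 of the 20 strongest members. Their signals were 7156 at chr3R:16221601-16222841 (900 bp upstream, ranks 78, 91 and 72), 4394 in the same interval (1528 bp upstream, ranks 234, 252 and 229) and 6360 at chr3R:16224206-16225044 (912 bp downstream of its TSS, ranks 133, 81 and 126). The nearest coding gene of each was tara, a Trithorax group gene, with TSSs 3156, 3784 and 1139 bp away.

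The third strongest member, with a signal of 6976, lay in the 1340-bp gap between the ends of CycB, which encodes the mitotic cyclin B, and blw, which encodes a subunit of the mitochondrial ATP synthase. It ranked 60, 97 and 94. On 2L a group of strong members surrounded chinmo, which encodes a BTB zinc finger factor that sets neuronal identity over time. The member at chr2L:1642939-1643990 (signal 6817, ranks 72, 84 and 112) was nearest to lncRNA:CR45695 and 7828 bp from the chinmo TSS. A further one at chr2L:1648555-1650043 (signal 6156, ranks 123, 86 and 179) was 1833 bp upstream of chinmo itself, in the divergent gap of 4094 bp between the pair.

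The member of DNAlig3, a DNA ligase gene, had a signal of 6309 (ranks 73, 133 and 117). Its summit lay in a gap of only 437 bp between the ends of Sol1 and Cyp9f2, neither of which had the nearest TSS. The peak itself, at 519 bp, reached into both genes. Next came Rh5, the gene of a blue-sensitive opsin (signal 5967, 1354 bp upstream, ranks 120, 102 and 167), and foxo, which encodes the forkhead factor of insulin signalling (signal 5627, 3347 bp upstream, ranks 198, 129 and 124). A neighbour of Rh5, lncRNA:CR44588, held a member of signal 4029 (ranks 276, 275 and 313). Members upstream of bin, the FoxF factor of the visceral mesoderm (signal 4397, ranks 184, 225 and 299), and of RasGAP1, a Ras GTPase activator (signal 4019, ranks 223, 276 and 359), followed. A pair of integrin adhesion genes stood near the end of the 20, stck, which encodes PINCH (signal 3723), and by, which encodes tensin (signal 3435).

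**Figure D1:**
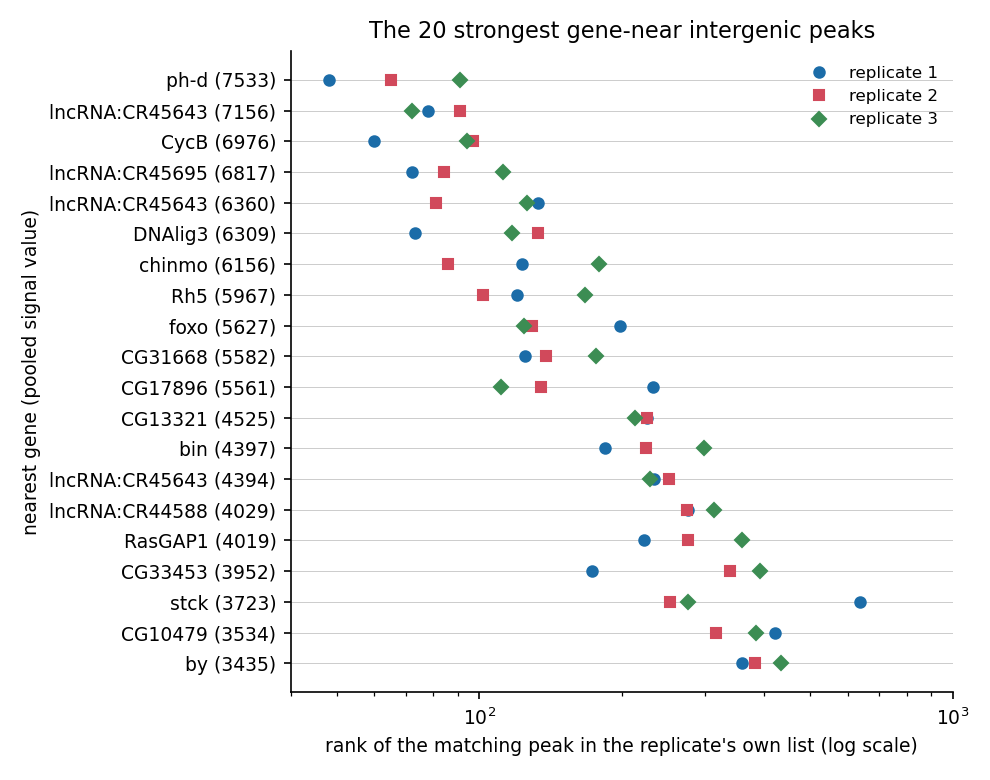
Rank of the matching peak in each replicate's own list (log axis, 1 is the strongest) for the 20 strongest members among those matched in each of the 3 replicates; rows run from the strongest at the top, with the signal in brackets. Ranks spread from 48 to 638, and the widest gap between replicates was at stck, with 638 in replicate 1 against 253 and 276 in replicates 2 and 3.

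The rest of these 20 were the members of CG31668 (signal 5582), CG17896 (5561), CG13321 (4525), CG33453 (3952) and CG10479 (3534). Of all 20, 15 were upstream of the nearest TSS, 15 had a protein-coding gene as the nearest, and 8 had a nearest gene with its own promoter summit. Replicates put all of them within the first 638 ranks. The strongest member of 3L was that of bin, and the strongest on chromosome 4 was 3913 bp upstream of zfh2, which encodes a zinc finger homeodomain factor (signal 2753, ranks 608, 559 and 579). The only other member on chromosome 4, 542 bp upstream of the kinase gene Asator, had a signal of 827.2.

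Members thinned out with distance from the TSS. The rule admits 16.4 Mb of sequence, 12.2% of the arms, and the members' density in it was 67.0 per Mb, close to the 70.7 IDR summits per Mb over the whole arms. Among members, 257 lay in the first bin of 500 bp, up to 1000 bp from the TSS, a density of 91.0 per Mb, against 58 in the last, up to 5000 bp, at 50.8 per Mb. In the replicates these densities were 94.9 ± 1.77 and 53.4 ± 4.01 per Mb, a difference of 41.4 ± 3.15 in the same direction in all 3 (mean ± SD, n = 3, exact sign-flip permutation p = 0.25). The step to the next bin was 24.0 ± 3.27 per Mb, and the 5 farthest bins stood between 47.9 and 61.9 per Mb in no order. The median distance was 1864 bp in the IDR list and 1827 ± 35.8 bp in the replicates.

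**Figure D2:**
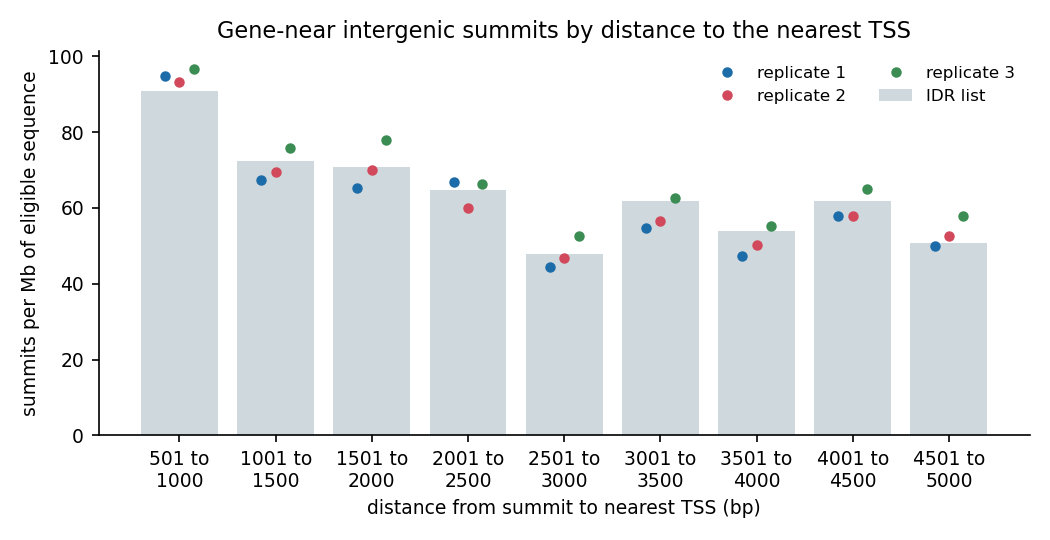
Summits per Mb of eligible sequence (y) in bins of 500 bp of distance to the nearest TSS (x); bars are the IDR list and points the 3 replicates' own strongest 9459 peaks. The first bin, at 91.0 per Mb, is above every other bin in each replicate, and the last is at 50.8 per Mb.

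The side of the TSS and the arrangement of the flanking genes mattered less. Upstream of the nearest TSS lay 746 members, or 68.0% (exact 95% interval 65.2 to 70.8), but 64.1% of the eligible sequence is upstream as well. Density was 70.7 ± 3.43 per Mb upstream and 60.2 ± 3.80 downstream in the replicates, a difference of 10.4 ± 0.399. By arrangement, 335 members lay in divergent gaps (both flanking genes read away from the gap), 574 in tandem gaps and 188 in convergent gaps. Densities were 76.4 ± 5.15, 65.4 ± 2.52 and 59.4 ± 4.74 per Mb in these gaps, in that order, and that order held in the mean difference of each pair and in all 3 replicates. The difference between divergent and convergent gaps was 17.0 ± 1.02 per Mb.

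Short gaps were the richest. Gaps of up to 5 kb held 87.2 ± 2.76 members per Mb in the replicates, against 40.8 ± 3.20 in gaps of over 20 kb, a difference of 46.4 ± 0.672. Gap length and distance to the TSS are tied to each other, and the part of each was not tested. Each of 12 such density comparisons had an exact sign-flip permutation p of 0.25, the smallest possible with 3 replicates, and the same adjusted p. Among the arms, 3L was the densest, with 310 members and 88.9 ± 4.19 per Mb, against 69.4 ± 6.04 on 2L, 62.9 ± 3.56 on X, 57.5 ± 4.57 on 3R and 54.5 ± 2.80 on 2R (n = 3). Chromosome 4, with 2 members in the IDR list, varied most between replicates, at 36.2 ± 21.0 per Mb.

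**Figure D3:**
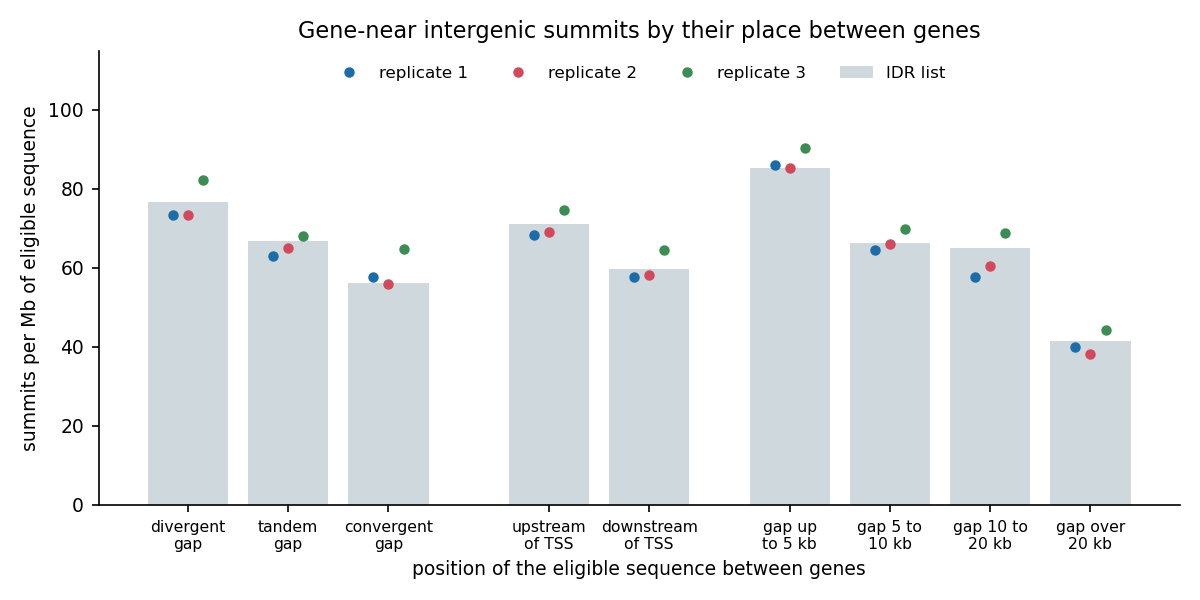
Summits per Mb of eligible sequence (y) by the arrangement of the flanking genes, the side of the nearest TSS and the length of the gap between genes (x); bars are the IDR list and points the 3 replicates. Density is 85.3 per Mb in gaps up to 5 kb and 41.4 per Mb in gaps over 20 kb, and the replicates' points keep apart from each other between these gap lengths.

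Members gathered near genes that had a promoter summit too. The nearest gene had an IDR summit within 500 bp of one of its TSSs for 330 members (30.1%, exact 95% interval 27.4 to 32.9). Counted by gene, this held for 249 of the 824 nearest genes, against 19.8% of all 18164 genes, and for 187 of the 562 nearest protein-coding genes (33.3%), against 22.5% of all protein-coding genes. These backgrounds include genes that could not be a nearest gene, since only 5928 of 13945 protein-coding genes had eligible sequence. Only 12.1% of the eligible sequence belonged to a gene with a promoter summit. Members were found there at 162 ± 8.91 per Mb and beside genes without one at 53.8 ± 3.95 per Mb in the replicates (n = 3), a difference of 108 ± 11.7, in the same direction in all 3 (exact sign-flip permutation p = 0.25, the smallest possible).

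The excess was not confined to the sequence next to the promoter. At over 2000 to 5000 bp, densities were 122 ± 6.45 per Mb beside genes with a promoter summit and 47.7 ± 4.01 beside genes without, and at over 500 to 1000 bp they were 223 ± 7.77 and 72.9 ± 2.37 per Mb. The part of gap length in this was not tested. By strength, 36.7% of the 275 strongest members had a nearest gene with a promoter summit, against 22.3% of the 274 weakest.

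**Figure D4:**
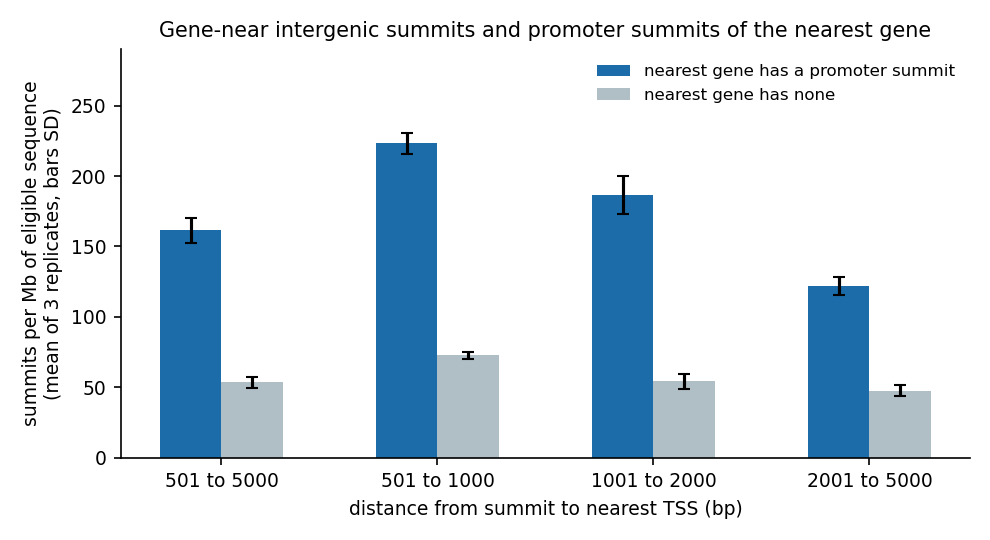
Summits per Mb of eligible sequence (mean of 3 replicates, error bars SD) at 3 ranges of distance and over all of them (x), beside nearest genes with a promoter summit (blue) and without one (grey). The blue bars are higher at every distance, with 223 against 72.9 per Mb up to 1000 bp and 122 against 47.7 per Mb beyond 2000 bp.

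Members had neighbours about as often as other IDR summits. Another IDR summit lay within 1000 bp of 329 of 1097 members, against 30.6% of all IDR summits. In the replicates the share was 31.3% ± 2.37, and it differed from that of promoter summits by -0.276 ± 0.499 points and from that of gene body summits by -0.0402 ± 1.61, both within the spread, while distal intergenic summits were lower at 23.0% ± 1.21 (difference 8.33 ± 1.72). Members filled 745 gaps between genes. Of these, 516 held 1 member, 150 held 2, 49 held 3 and 30 held 4 or more.

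The most crowded gaps were all on 3L. The 3 gaps with 6 members each were those between lncRNA:CR44363 and CG7560 (19063 bp), between tRNA:Ile-TAT-1-2 and CG13898 (32964 bp) and between CG7484 and Crtc, the gene of a CREB coactivator (4172 bp). The last was the tightest, with its 6 members within 2976 bp. Their signals, in order along the chromosome, were 656.3, 300.2, 687.9, 1714, 289.7 and 556.3, and replicate 1 matched all 6 of these members, replicate 2 matched 4 and replicate 3 matched 5. Those matched in all 3 were 4. The strongest stood at ranks 1734, 1394 and 684. All 6 had the CG7484 TSS as the nearest and lay 1547 to 4523 bp downstream of it, and CG7484 had a promoter summit as well.

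Other genes with many members included the gustatory receptor gene Gr93a, with 6. Upstream of Gr93a the signals were 787.1, 1025 and 461.4, all matched in every replicate, and downstream they were 259.4, 237.7 and 963.4, of which the last alone was. No promoter summit was found at Gr93a. CG13898 had 5 members, all matched in every replicate, with signals of 401.0, 415.3, 1745, 557.7 and 827.2. At lncRNA:CR45737, beside the receptor tyrosine kinase inhibitor gene sty, the 5 signals were 846.7, 342.6, 2363, 1267 and 2271, and at lncRNA:CR44606 they were 648.9, 698.2, 264.6, 410.5 and 794.7. At both lncRNA genes 4 of the 5 were matched in all replicates. In all, 6 genes had 5 members each, and those named are the first along the arms.

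Noncoding genes were often the nearest. The nearest TSS belonged to a protein-coding gene for 714 members (65.1%), to a noncoding RNA gene for 348 (31.7%, of which 335 were lncRNA genes) and to a tRNA gene for 27. These classes held 67.3%, 28.3% and 1.45% of the eligible sequence. Members stood at 73.6 ± 4.98 per Mb near noncoding RNA genes and 65.3 ± 3.18 per Mb near protein-coding ones (n = 3), a difference of 8.22 ± 3.01, and tRNA genes had 112 ± 12.2 per Mb on only 0.238 Mb. The strongest of the 27, at 2430 and 1490, were beside tRNA:Phe-GAA-1-7 and tRNA:Phe-GAA-1-6, and the third, at 1209, beside tRNA:Ile-AAT-1-9. These 3 summits lay 600 to 3807 bp from the TSS of their tRNA gene.

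Few members were beside small RNA genes or pseudogenes, and the share of sequence near these differed. SnoRNA genes were nearest for 3 members, or 0.273%, and hold 0.207% of the eligible sequence, with 98.5 ± 17.1 members per Mb in the replicates (n = 3). Pseudogenes were nearest for 5, or 0.456%, and hold 2.60%, with 11.0 ± 1.36 per Mb. The microRNA gene mir-219 had 2 (signals 659.6 and 365.4) and mir-287 had 1 (270.6). The snoRNA genes with a member were snoRNA:Me28S-C788b (527.4), snoRNA:Psi28S-3436b (506.1) and snoRNA:Psi18S-301 (295.6). The members near pseudogenes were those of CR31562 (610.0), CR43100 (518.3 and 322.6), CR31958 (418.6) and CR43276 (278.1).

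Few summits in the lists lay inside annotated transposons. They numbered 7, or 0.638% of members (exact 95% interval 0.257 to 1.31), against 0.275% of all IDR summits, whereas 6.69% of the eligible sequence is annotated as transposon. In the replicates the share was 0.551% ± 0.173 (n = 3). The aligner and its settings are not given, and how well reads can be placed in transposon copies was not tested. These shares therefore do not say whether the protein is bound there. The strongest was in an INE-1 copy 735 bp upstream of ed, a cell adhesion gene (signal 1754, ranks 863, 1306 and 1171). Others lay near IP3K1 (539.0), C1GalTA (484.5) and DCTN5-p25 (281.2), all in INE-1 copies, near CG15696 (452.8, Cr1a) and near CR43276 (278.1, a 1360 copy). The seventh lay 780 bp upstream of del, in an HB copy (signal 718.2, ranks 4051 and 3761 in replicates 1 and 2, and no summit in replicate 3). The del gene encodes Deadlock, the partner of Rhino at piRNA source loci. It was the only one of the 36 listed piRNA pathway genes with a member, and 8 of the 36 had eligible sequence. That list had 81.1 members per Mb on 0.0123 Mb, and 135 ± 46.8 per Mb in the replicates.

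Genes of 19 lists were counted as nearest genes of members. Of all 13945 protein-coding genes 562 (4.03%) were nearest to a member, but only 5928 had any eligible sequence and could be. A list's share of genes is thus no measure by itself, since lists differ in this number (72 of 79 homeobox genes, 30 of 93 ribosomal protein genes). Since a gene with long intergenic flanks can collect more members, each list's density is given beside the 64.8 members per Mb of sequence nearest to protein-coding genes (65.3 ± 3.18 in the replicates). The lists were chosen with earlier results of these data known and have no test.

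Some developmental regulators were nearest genes, and the densities of their lists lay on both sides of the background. Of 79 homeobox genes, 72 had eligible sequence and 8 were nearest to 10 members (10.1% of the 79), at 42.5 per Mb. The strongest after zfh2 were beside Optix, a homeobox gene of the eye (779.7), bcd, the anterior morphogen gene (749.0), and zfh1 (736.3). Of 44 segmentation and dorsoventral genes 5 had a member, at 44.9 per Mb, led by the forkhead gene slp2 (signal 3237, 4306 bp upstream, ranks 313, 487 and 466), the Sox gene D (772.6) and the pair-rule gene hry (688.3). Both lists were thus below the background per Mb, with 43.9 ± 4.91 and 54.9 ± 4.32 per Mb in the replicates.

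Signalling ligands stood at 91.2 per Mb, with 6 of 43 genes, but varied between replicates (82.5 ± 32.8), and 2 of their 7 members were matched in all replicates. Those were upstream of Wnt6 (620.0) and Pvf3, a PDGF and VEGF related ligand (463.8). A member of the Wnt4 gene had a signal of 391.0. Mesoderm and muscle genes had 6 of 40 and 88.7 per Mb (85.0 ± 6.40), with bin at the head, followed by the muscle actin genes Act57B (1763, ranks 1083, 1073 and 1383) and Act87E (1057, ranks 2801, 2192 and 2016). The E(spl) and Brd complex genes, many of them targets of Notch signalling, had 2 of 16 genes with 3 members, all matched in each replicate, at 119 per Mb on 0.0252 Mb. These were at E(spl)malpha-BFM (2145 and 543.6) and Kaz-m1 (703.8).

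Early neural factors had 4 of 36 genes at 61.9 per Mb (70.2 ± 18.9), with D again, a pair of members of the zinc finger gene nerfin-1 (621.1 and 571.2) and 1 of fne (437.4). Ecdysone response and nuclear receptor genes had 3 of 36 at 70.7 per Mb (64.8 ± 10.2), led by the nuclear receptor gene Hr38 (1518, ranks 1863, 1173 and 1727) and the repressor gene Blimp-1 (1381, ranks 1972, 1719 and 1255). Of the GATA, Runx, Grh and related factors 2 of 21 had members, at 91.4 per Mb (81.2 ± 17.6), srp, the GATA factor gene of blood and fat body (736.6 and 575.3), and klu (271.3). The Polycomb and Trithorax list had 1 of 30, ph-d, and the insulator and promoter factor list 1 of 21, zld, the gene of the pioneer factor Zelda (354.2, not matched in all replicates). With 1 member each, these lists stood at 107 per Mb on 0.00932 Mb and at 460.4 per Mb (307 ± 266) on 0.00217 Mb, so their densities rest on very little sequence.

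Genes of late or adult functions were among the nearest genes as well. Of 119 taste and smell receptor genes, 72 had eligible sequence and 7 were nearest to 15 members (5.88% of the 119). Their density was 75.2 per Mb (66.9 ± 7.66 in the replicates), while 2 of the genes had a promoter summit. The strongest were beside Gr89a (1314, ranks 2093, 1720 and 1411), Gr93d (1188, ranks 1964, 1851 and 2145) and Gr93a. Of 70 Cpr cuticle protein genes 7 were nearest to 8 members, at 76.4 per Mb (76.4 ± 9.55), while 3 had a promoter summit, and the strongest were at Cpr65Eb (1263), Cpr67Fb (1201) and Cpr51A (1185).

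Many ribosomal protein genes had no eligible sequence. Of 93 genes taken by symbol, 30 had some and 2 were nearest to a member (2.15% of the 93). Their density was 41.7 per Mb (34.8 ± 12.04), while 67 of the 93 had a promoter summit. Mitochondrial ribosomal protein genes had 1 of 73, mRpL21 (722.9), on only 0.00536 Mb, which makes 186 per Mb, above the background. No member had a heat shock gene, a glycolytic gene, an antimicrobial peptide gene or a chorion and vitelline gene as its nearest gene. These 4 lists held 25, 14, 21 and 16 genes, with at most 0.0171 Mb of eligible sequence in any of them, so a count of 0 says little.

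The summits of members were poor in G and C. Within 50 bp of the summit 30.6% of bases were G or C on average, against 44.5% in a flank window of the same length centred 300 bp farther from the TSS, and content was lower at the summit in 906 members, higher in 172 and equal in 19. In the replicates the values were 31.3% ± 0.451 and 44.5% ± 0.257, a difference of -13.1 ± 0.692 points in the same direction in all 3 (exact sign-flip permutation p = 0.25, adjusted p = 0.286). Eligible sequence at large held 40.5%. Around the summit the content was lowest within 20 bp of it, at 29.8%. It was highest near 290 bp, at 45.0% towards the TSS and 44.9% away from it, and was 43.0% beyond 400 bp. The flank window lay at this crest, so the summit was set against sequence richer in G and C than eligible sequence at large.

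With the flank away from the TSS, the dip was deeper than at promoter and gene body summits. The difference between summit and flank was -7.64 ± 0.22 points at promoters and -10.5 ± 0.433 in gene bodies, so that members differed from them by a further -5.49 ± 0.603 and -2.60 ± 0.282 points. At distal intergenic summits it was deeper, at -15.6 ± 0.793 points, and members were higher by 2.44 ± 0.126. All these held in each of 3 replicates, with an exact sign-flip permutation p of 0.25. The side of the flank matters for promoters, which held 41.6% G and C near 290 bp away from the TSS and 45.1% towards it. Members held 44.9% and 45.0% there. The difference from promoters with the flank towards the TSS was not tested. Members that were in the IDR list also stood apart from the 3151 gene-near intergenic summits of the pooled list that were not, with 39.4% G and C at the summit and 42.2% in the flank. Those have signals of at most 236.2, so composition and strength moved together there.

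**Figure D5:**
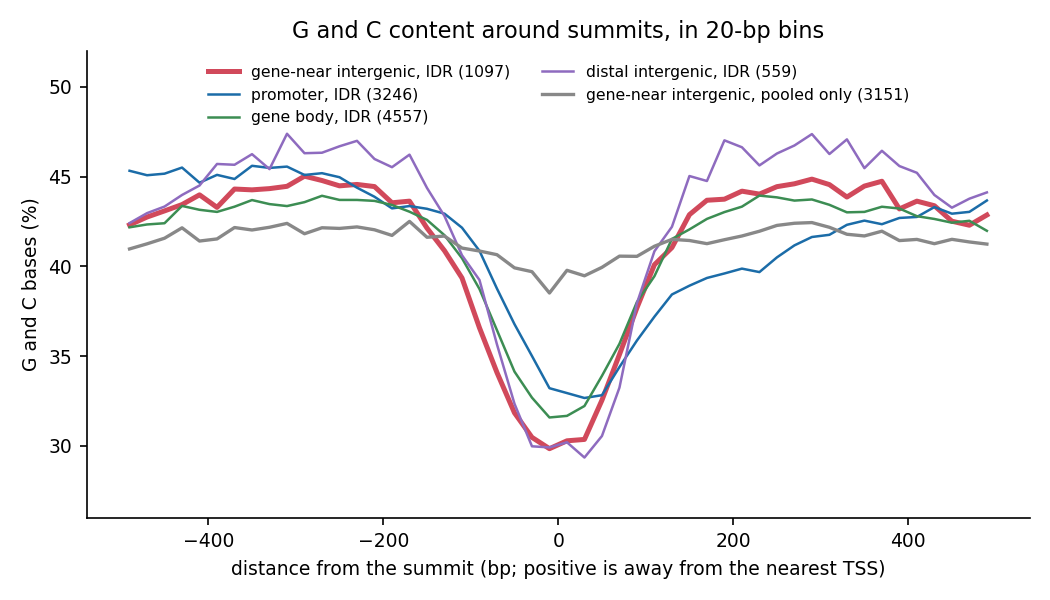
Percentage of G and C bases (y) in bins of 20 bp around the summit (x, positive values point away from the nearest TSS) for the 4 classes of IDR summits and for gene-near intergenic summits of the pooled list that did not pass the IDR threshold; numbers of summits are in brackets. The members' line falls to 29.8% at the summit and stands near 43.0% beyond 400 bp, while the line of the peaks outside the IDR list has a far shallower dip.

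Within the members, summit composition did not follow the order of strength, while flank content fell from the strongest set to the weakest. The weakest set had the highest summit content and the lowest flank content, and so the smallest dip. In 4 sets of 274 or 275 members from the strongest to the weakest, summit G and C content was 30.7%, 28.9%, 30.4% and 32.4%, and flank content was 45.6%, 44.9%, 44.5% and 43.3%. Members up to 1000 bp from the TSS and those farther away were alike at the summit, at 30.7% and 30.6%. Long runs of A and T were the local form of this composition. The longest unbroken run within 50 bp had a median of 11 bases at the summit and 7 in the flank, and it reached 10 bases at 62.4% of summits and 24.7% of flanks.

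Soft-masked bases, which mark repeats and low-complexity sequence in the reference, moved with the summits. Members had 27.8 such bases per summit window on average, against 16.7 in the flanks, and in the replicates 26.6 ± 1.00 and 16.5 ± 0.555 (n = 3). Eligible windows at large had 20.8. In the 97 members with no soft-masked base in either window the dip was smaller but present, with 37.1% G and C at the summit and 46.4% in the flank, lower at the summit in 72 of 97. In the replicates the difference there was -8.16 ± 0.448 points.

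Among all words of 6 bases, counted on either strand, 356 were more frequent within 50 bp of the members' summits than in their flanks (17.1% of the words) and 707 were less frequent (34%), by an exact McNemar test with an adjusted p of at most 0.05 that treats peaks as independent. All 36 words without G or C were among the more frequent, as were 182 of the 192 words with a single G or C, 130 of the 492 words with 2 and 8 of the 640 with 3, and 0 of those with more. The word AAATAT had the largest difference, with 40.5% of summits and 14.8% of flanks (adjusted exact McNemar p = 5.1e-37), followed by TAAATA (35.3% and 11.7%) and AATATA (30.9% and 7.38%). In the replicates AAATAT was in 38.8% ± 0.886 of summits and 15.9% ± 1.69 of flanks (n = 3). The next 7, all made of A and T, differed by 22.1 to 19.3 points. They were led by TTAAAA with 35.7% of summits and 13.7% of flanks, and the word with the smallest p of all, ATATTA, was in 26.4% of summits and 5.10% of flanks (adjusted exact McNemar p = 4.86e-40).

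Words that were scarce at the summits were mostly rich in G and C. GCCAAA was in 5.47% of summits and 14.0% of flanks, CAGCCA in 2.28% and 10.5%, and GCAGCA in 3.10% and 10.8%. The 7 words that followed, among them GGCCAA at 2.73% of summits and 10.3% of flanks and the repeat CACACA at 5.47% and 12.9%, differed by -7.57 to -6.02 points. Among the called words with 2 or more G or C bases, a group singled out after its values were seen, TAAGCA was ahead with 9.39% of summits and 4.10% of flanks (adjusted exact McNemar p = 9.78e-06), followed by AACCAT with 7.201% and 2.64%.

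With only the 97 members free of soft-masked bases in both windows, no word was called by the exact McNemar test, 58 were higher and 35 lower at an unadjusted p under 0.05, and AAATAT stood at 26.8% of summits and 4.12% of flanks (adjusted exact McNemar p = 0.0571). The direction turned for CACACA, which was in 10.3% of these summits and 2.06% of flanks (adjusted exact McNemar p = 0.89), while the other 9 of the 10 words most depleted over all members kept theirs. The smaller number of members limits this comparison.

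Of 26 motifs searched on both strands, 6 were more frequent at the summits than in the flanks (23.1%) and 8 less frequent (30.8%) by the same test. A match to a motif is a description of the sequence and not a site of its factor. Summits and flanks differed in G and C content (30.6% and 44.5%), and windows were not matched for it. Its part in the word and motif calls was not tested. The TATA box word TATAAA was in 26.7% of summits and 10.3% of flanks (adjusted exact McNemar p = 1.78e-20), against 13.0% of eligible windows of the same length. In the replicates it was in 25.7% ± 0.187 of summits and 9.71% ± 0.728 of flanks. The run AAAAAA was in 30.3% and 15.8%, the homeodomain word TAATTA in 12.03% and 6.02%, its longer relative AATTAAA in 14.8% and 7.47%, the Sox word AACAAT in 15.04% and 10.1%, and TTTATG, a word of Caudal and posterior Hox proteins, in 16.0% and 10.7%. Their shares of eligible windows were 20.4%, 7.94%, 9.15%, 12.1% and 13.5%, in that order. All 6 are rich in A and T.

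In contrast to these, the G-rich word GRGG, which is GAGG or GGGG and has been reported for this protein in ovaries, was in 27.4% of the members' summits and 58.9% of flanks (adjusted exact McNemar p = 6.93e-44), against 50.1% of eligible windows, and in the replicates in 28.5% ± 0.995 of summits and 57.9% ± 0.686 of flanks (n = 3). GGGG, which GRGG contains, was in 12.8% and 37.7%. The part of base composition in the scarcity of these G-rich words was not tested. GRGG was also the single motif still called among the 97 members free of soft-masked bases, with 40.2% of summits and 72.2% of flanks (adjusted exact McNemar p = 0.000859). Gene-near summits outside the IDR list had it more often, at 47.4% of summits and 53.1% of flanks.

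Less frequent as well were GAGAG, the word of the GAGA factor and CLAMP (7.02% of summits and 12.8% of flanks), GCCAT, bound by the Polycomb recruiter Pho (11.4% and 22.0%), the repeat ACACAC (5.10% and 9.48%), the Runx word AACCGC (1.00% and 3.28%) and the E-box words CAGCTG (1.55% and 3.56%) and CACGTG (0.182% and 1.09%). In the 97 members free of soft-masked bases the direction turned for GAGAG (14.4% of summits and 13.4% of flanks), GCCAT (20.6% and 18.6%), ACACAC (5.15% and 2.06%) and CAGCTG (4.12% and 3.09%), none of them called there (adjusted exact McNemar p of 1 for each), and CACGTG was equal. Calls for the rarer of these depended on the members and windows used. Among members matched in all replicates neither E-box word was called (adjusted exact McNemar p = 0.139 for CAGCTG and 0.131 for the other). Within 25 bp of the summit the repeat ACACAC missed the threshold (adjusted exact McNemar p = 0.053), as did the Runx word (0.328) and CACGTG (1). With the flank on the side towards the TSS, the Grainyhead word AACCGG was called as well (adjusted exact McNemar p = 0.0279), and so was TGGGAA, the word of Su(H), the Notch pathway factor (0.00449). The Zelda word CAGGTA (2.01% and 1.19%), the GATA word GATAAG (6.11% and 4.28%) and the Dref word TATCGATA (0.365% of summits and no flank) were not called, with an adjusted exact McNemar p of 0.217, 0.117 and 0.163.

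Compared with the other classes of IDR summits, members carried TATAAA more often than promoter and gene body summits in each of 3 replicates, with 25.7% ± 0.187 against 23.6% ± 0.359 and 24.6% ± 0.622, and less often than distal intergenic summits, with 28.0% ± 1.08 (n = 3). TAATTA was higher in members than in all 3 other classes in every replicate, at 11.6% ± 1.21, against 10.7% ± 0.393 at promoters, 10.5% ± 0.469 in gene bodies and 10.7% ± 0.790 at distal summits, a difference within the spread of the members. GRGG was lower in members than at promoter and gene body summits in every replicate, with 28.5% ± 0.995 against 31.0% ± 0.681 and 31.7% ± 1.01. Distal summits had 28.0% ± 1.46, and members were higher than these in 2 of 3 replicates. The exact sign-flip test cannot give a p below 0.25 for such differences with 3 replicates.

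A few members had the opposite composition. G and C made up at least 50% of the summit window in 39 of 1097 members, and the highest was 69.3%, at the weaker of the members beside lncRNA:CR44588 that are named here (signal 885.0, ranks 2319, 2940 and 3199). The next among members matched in all replicates and free of soft-masked bases, at 60.4%, were beside lncRNA:CR44761 (signal 1177, ranks 2257, 1952 and 1362) and lncRNA:CR44310 (signal 325.4, ranks 8089, 7698 and 8252). Of the motifs searched, the printed run of lncRNA:CR44588 holds both G-rich words, the GAGA factor word, the initiator word TCAGTT and the repeat CGCGCG, and that of lncRNA:CR44310 holds both G-rich words and the Pho word. At the other end, the lowest content of any member was 10.9%. The printed runs of CG7320 (20.8%) and srp (22.8%) were among the lowest only of members matched in all replicates and free of soft-masked bases. They hold none of the 26 motifs.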

How the data were processed

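The 5 peak lists are in narrowPeak form on dm6, per the deposited file descriptions, which name a control for the calls. Each replicate's list and the pooled list hold 30000 peaks and the IDR list 9459. The aligner and peak caller were, with their settings, not given in the sources used here. Signal is a score deposited by the authors and served to order peaks inside each list. The deposited −log10 q-value was not used. The summit offset in bp, as deposited, gave the summit, reported 1-based.

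Genes and TSSs came from Ensembl release 115 (BDGP 6.54), without transposable elements (18164 genes), and sequence from the RefSeq copy of dm6. Older symbols were matched through RefSeq synonyms. Eligible sequence is every base that meets the rule. Flank windows were centred 300 bp from the summit, away from the nearest TSS. A replicate's values come from its own 9459 strongest peaks, and a match is a summit within 100 bp. Replicates are numbered as in the labels. Tests were exact sign-flip permutation tests over replicates and exact McNemar tests, with Benjamini-Hochberg adjustment within each family and a threshold of 0.05. Intervals are Clopper-Pearson and cover counting error only. Class assignment was checked on a made-up arm and the sign-flip test on 3 fixed values. The McNemar test was checked on simulated words drawn independently, with no shift in base composition. Named were the 20 strongest members matched in all replicates, the strongest of each arm, all members of the 5 genes with most (ties to the lower coordinate), the strongest 3 of each gene list, summits at each limit, and the 3 of highest and of lowest G and C content. Alternatives changed the distance limits, the gene set, the summits, the match distance, the windows and the replicates used. The members of the ribosomal protein genes are not reported singly here. Members, lists and rules were chosen with earlier results of these data known. Python 3.11.15, numpy 2.4.6, pandas 2.3.3 and scipy 1.17.1 were used.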

Additional observations from a re-analysis of the deposited data

How the results depend on the processing

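Of 106 alternative values 63 counted as unchanged. These stayed within the replicate SD or, for signal, the dip in G and C content and the words called, kept their direction or a count within 1.5 times. Another 40 moved by more than the replicate SD, and 3 counts of words called were weaker. A reversal of direction was seen in 0, but shares, distances and counts have no direction to reverse. The median signal, 491.9 in the IDR list, was 884.4 among the stronger IDR peaks and 691.5 among members matched in all replicates. Moving the inner limit also moved the window that defines a promoter summit. With that window kept at 500 bp, 28.7% of members over 1000 bp from the TSS had a nearest gene with a promoter summit. The share was 34.6% for members up to 1000 bp away. With the inner limit at 300 bp, members were 14.4% of IDR summits, 73.8% lay upstream, the median distance was 1436.5 bp and 19.5% had a nearest gene with a promoter summit. With it at 1000 bp these were 8.88%, 64.8%, 2329.5 bp and 39.4%, and 26.8% lay within 1000 bp of another summit. With the outer limit at 2000 bp they were 6.17%, 75.5%, 1086 bp and 34.2%, 36.5% lay within 1000 bp of another summit, and 523 words were called in place of 1063. With protein-coding genes only they were 10.7%, 74.8%, 1987.5 bp and 35.0%. With transposons counted as genes 66.2% lay upstream and 28.3% had a promoter summit. With 1 summit per interval 67.5% lay upstream, the median distance was 1902 bp, 27.5% had a promoter summit and 23.7% another summit within 1000 bp. Among the stronger IDR peaks 93.5% were matched in all replicates, 68.7% lay upstream, and 21.2% and 22.5% had a promoter summit and a near summit. Among members matched in all replicates 66.9% lay upstream, at a median of 1917 bp, and these shares were 22.0% and 20.7%. In these last subsets promoter summits were recounted on the same subset of peaks. Matching within 50 bp gave 51.0%. Words called fell to 638 within 25 bp of the summit and to 0 among members free of soft-masked bases, of which there are fewer. The dip in G and C content was -13.9 points and lay between -15.5 (members matched in all replicates) and -9.30 (no soft-masked bases).

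Leaving out each replicate in turn gave a median signal of 129.2 to 199.4, since signal is then taken from single replicates' lists and not from the pooled one, and 69.6% to 74.1% of members matched in both others, 67.6% to 67.9% upstream, a median distance of 1808.75 to 1844.5 bp, and 30.2% to 32.5% with another summit within 1000 bp. With 1 group of samples there were no groups to pair, and classes of summits were compared within each replicate. Depth is unknown, and the exact sign-flip test over 3 replicates cannot give a p below 0.25.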
